A study of Mus musculus with 2 samples.

Results

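Granzyme-rich NK cells were taken from the sorted leukocytes of B16F10 tumors as barcodes that held NK receptor transcripts, almost no CD3 transcripts and several granzyme transcripts. A barcode is the sequence tag of 1 droplet, and a unique molecular identifier (UMI) is 1 counted transcript. The rule required at least 200 detected genes, at most 10% mitochondrial UMIs, at least 2 UMIs of Ncr1, Klrb1c and Klre1 together, at most 1 UMI of Cd3e, Cd3d and Cd3g together, and at least 5 UMIs of Gzma, Gzmb and Gzmc together. Barcodes with more than 2 UMIs of the C1q genes, more than 1 of Cd79a and Cd79b, or 3 or more of Siglech were left out, limits aimed at macrophages, B cells and plasmacytoid dendritic cells. The rule found 245 cells among 12815 kept barcodes, 120 from control tumors and 125 from the library labelled knockout. Because the cells were selected on the UMIs of these NK receptor, CD3, granzyme, C1q, Cd79 and Siglech genes, the levels of those genes are given as a description only.

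B16F10 is a mouse melanoma line. It was grown under the skin of C57BL/6 hosts that were either control (Usp18f/f, with the Usp18 gene flanked by sites for Cre recombinase in every cell) or Usp18f/f LysM-Cre, in which Cre is driven by the myeloid gene Lyz2 and Usp18 is meant to be lost in myeloid cells, not in NK cells. Usp18 encodes a protease that removes ISG15 from proteins and restrains signalling by the type I interferon receptor. Tumors were taken at day 14, 4 tumors were pooled per genotype, live CD45+ cells were sorted, and 1 droplet library per genotype was made by 3′ counting. Age and sex of the hosts are not given in the sources used here.

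NK cells are innate lymphocytes that kill target cells without a rearranged antigen receptor. Their granules hold perforin, which opens the target membrane, and granzymes, serine proteases that enter through it and start cell death. Granzyme A is stored by resting mouse NK cells, whereas granzyme B protein and the granzyme C to G genes, a tandem family next to Gzmb in the mouse genome, are known to appear after activation by cytokines such as IL-2 and IL-15.

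The promoter sequences of the granzymes and of perforin are shown because these genes define the cells and vary among them. Each is the 250 bases before the RefSeq start of the gene (GRCm38.p6), written 5′ to 3′ on the strand of the gene. Capitals mark matches, on either strand, to 4 motifs searched: T-box (GGTGTGA), Runx (TGTGGTT), CRE (TGACGTCA) and AP-1 (TGANTCA). The T-box and Runx letters stand for the families of Tbx21 and Eomes and of Runx3, which act in NK cells.
Gzma, chr13:113100982-113101231, minus strand: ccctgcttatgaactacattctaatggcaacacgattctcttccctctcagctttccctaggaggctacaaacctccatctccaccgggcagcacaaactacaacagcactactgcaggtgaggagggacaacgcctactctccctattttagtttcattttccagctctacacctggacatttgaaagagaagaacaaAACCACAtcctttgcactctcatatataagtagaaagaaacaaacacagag
Gzmb, chr14:56262335-56262584, minus strand: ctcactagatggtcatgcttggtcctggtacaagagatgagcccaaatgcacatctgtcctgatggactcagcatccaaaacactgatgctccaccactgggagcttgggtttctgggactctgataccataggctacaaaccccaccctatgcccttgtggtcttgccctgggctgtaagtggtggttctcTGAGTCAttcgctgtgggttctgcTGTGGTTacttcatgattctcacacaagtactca
Gzmc, chr14:56234658-56234907, minus strand: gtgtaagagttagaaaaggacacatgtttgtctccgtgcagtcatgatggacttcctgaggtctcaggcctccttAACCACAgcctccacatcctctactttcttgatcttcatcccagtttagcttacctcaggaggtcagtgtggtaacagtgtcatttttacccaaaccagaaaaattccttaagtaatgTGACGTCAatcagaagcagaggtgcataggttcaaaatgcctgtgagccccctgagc
Prf1, chr10:61297586-61297835, plus strand: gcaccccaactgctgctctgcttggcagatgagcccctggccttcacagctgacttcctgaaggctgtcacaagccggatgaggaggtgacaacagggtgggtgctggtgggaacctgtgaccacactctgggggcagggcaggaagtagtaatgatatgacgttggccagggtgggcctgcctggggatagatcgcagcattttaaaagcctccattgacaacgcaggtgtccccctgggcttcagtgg

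The Runx letters lay 51 to 45 bases before the start of Gzma and 34 to 28 bases before that of Gzmb, and 175 to 169 bases before that of Gzmc. Gzmb also held the AP-1 letters at 58 to 52 bases, and Gzmc the CRE letters at 57 to 50 bases. Of 8 windows searched (Gzma to Gzmg and Prf1), 7 held the Runx letters, 3 the CRE letters (Gzmc, Gzmf and Gzmg), 1 the AP-1 letters and 0 the T-box letters. Among 27025 RefSeq windows of the same length, 4.46% held the Runx letters, 1.62% the CRE letters, 6.87% the AP-1 letters and 3.31% the T-box letters. The windows of Gzmc to Gzmg are close copies of one another, so their matches are not independent. A match is only a match of letters, not evidence of binding.

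The libraries held 7754 barcodes (43412346 UMIs) from the control and 6063 barcodes (48167632 UMIs) from the labelled knockout, where the design text names about 8000 cells per library, and 7086 and 5729 barcodes passed the limits on genes and mitochondrial UMIs. Of all barcodes, 8 sequences occurred in both libraries, and 1 of these was granzyme-rich in either. The median granzyme-rich cell held 2262 UMIs and 1211 genes in the control and 2932 UMIs and 1359 genes in the labelled knockout, with 4.38% and 3.93% mitochondrial UMIs. Among phagocytes (909 and 1381 cells with at least 5 C1q UMIs), Lyz2 was at 7180 CPM (UMIs of the gene per 1e+06 UMIs) in the control and 11.4 CPM in the labelled knockout, which goes with a LysM-Cre allele. Usp18 went against the label, with 18.3 CPM in the control and 72.8 CPM in the labelled knockout. The labels do not name the deleted exons, and a 3′ tag outside the deleted part checks nothing, so the second library is called the library labelled knockout throughout. The libraries also differed in sex-linked transcripts. Of the granzyme-rich cells, 30 in the control and 97 in the labelled knockout held Xist and no Y-linked UMI, and 47 and 7 held Y-linked UMIs and no Xist. Both kinds of transcript were found in 2 and 5 cells, and neither in 41 and 16. Host sex thus moves with the label, though both kinds of cell occurred in each library, and ratios within each kind are given at the end. With 1 library per genotype there is no replicate and no test, and every interval printed is an exact 95% interval (Poisson for levels, binomial for shares) that covers counting error only.

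Markers outside the rule were those of NK cells. All 16 further NK genes were detected in each library, every one of the 245 cells held at least 5 of their UMIs, and their summed level was 14463 and 14292 CPM against 3726 and 4372 CPM over all kept cells. The 3 gamma-delta T cell genes measured were at 0. The 12-gene list of type 2 and type 3 innate lymphoid cells, which includes the rule gene Ncr1, summed to 603 and 666 CPM, above the 101 and 75 CPM over all kept cells. Of that list 8 genes were at 0 in both libraries, among them the defining genes Il1rl1, Il5, Il13, Il22 and Il23r. Gata3, Rora and Kit, 3 genes of the list that NK cells can also express, were detected and summed to 175 and 169 CPM, against 83.0 and 55.3 CPM over all kept cells. The 11 T cell genes outside the rule summed to 285 and 199 CPM against 426 and 280 CPM over all kept cells. Without barcodes that also held transcripts of another cell type (below), the control sum was 408 CPM, close to that of all kept cells. In the labelled knockout the 14-gene list, which adds the 3 CD3 genes, was at 206 CPM over all members and 215 CPM without such barcodes.

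Some granzyme-rich barcodes also held transcripts of another cell type. A barcode was called mixed when at least 10 UMIs, and at least 0.2% of its UMIs, came from macrophage, neutrophil, melanoma or MHC class II genes, a limit set after the values were seen. There were 8 mixed barcodes in the control, with 32.4% of the UMIs of its granzyme-rich cells, and 11 in the labelled knockout, with 16.5%. The deepest control barcode held 88890 UMIs, 1463 of them of melanoma genes, and made up 20.4% of the control sum by itself. Scrublet, a doublet caller, marked 5 granzyme-rich barcodes in each library. Without mixed barcodes, melanoma genes stood at 40.8 and 29.6 CPM in place of 3406 and 63.5 CPM, neutrophil genes at 61.3 and 44.3 CPM in place of 835 and 56.4 CPM, dendritic cell genes at 320 and 538 CPM in place of 1706 and 1976 CPM, and macrophage genes at 1236 and 1136 CPM in place of 1725 and 1731 CPM. Of 6 dendritic cell genes that passed the filter without mixed barcodes, 4 were still at least 2-fold higher in the labelled knockout (median 1.58 on the log2 scale), and Fscn1 held 0 and 28 UMIs. Flt3, Xcr1, Clec9a and Cd209a were at 0 in both, and the part of these transcripts in the library differences was not tested. Levels below are therefore given without mixed barcodes (112 and 114 cells) unless stated, and the values over all members stand beside those that differ.

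Granzyme-rich cells were 1.69% (1.41 to 2.02) of kept cells in the control and 2.18% (1.82 to 2.59) in the labelled knockout. The ratio was 1.29 (1.01 to 1.65), and with a mitochondrial limit of 5% it was 0.935, on the other side of 1. Among cells that met the NK receptor and CD3 limits, 48.4% (42.0 to 54.8) of 248 in the control and 59.5% (52.6 to 66.2) of 210 in the labelled knockout were granzyme-rich. The limit of 5 granzyme UMIs cut through a continuous range. Just outside it, 13 and 9 NK cells held 4 granzyme UMIs (median depth 2161 and 2813 UMIs), and just inside it 10 and 4 held 5 (1992 and 4318 UMIs).

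Gzma, the most widespread granzyme of these cells, was found in 116 of 120 control cells and 117 of 125 cells of the labelled knockout. The median cell held 10.5 and 16 Gzma UMIs, and the 10th to 90th percentiles ran from 5 to 25.2 and from 4.4 to 47. The level was 5099 CPM in the control and 5578 CPM in the labelled knockout. Nearly all cells of both libraries thus held Gzma, and the summed levels stood within 1.1-fold of each other. Over all members the levels were 3627 (3450 to 3810) and 5016 (4833 to 5203) CPM.

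Gzmb, the granzyme that cleaves caspases in the target, had a higher summed level in the labelled knockout, with cells of the libraries overlapping. It was found in 51 of 120 control cells with 127 UMIs and in 82 of 125 cells of the labelled knockout with 778 UMIs, and the highest cells held 14 and 109 UMIs. Of the cells of the labelled knockout, 15 held more than the control maximum of 14. The level was 405 CPM in the control and 1535 CPM in the labelled knockout, and over all members 292 (243 to 348) and 1372 (1277 to 1471) CPM. After each cell was thinned to 1000 UMIs, so that depth did not differ, 23.3% (16.1 to 31.9) of control cells and 43.5% (34.7 to 52.7) of cells of the labelled knockout kept a Gzmb UMI. These shares are over all members with at least 1000 UMIs (120 and 124 cells). The log2 ratio was 1.91, and 2.21 over all members. Levels of log2(CPM + 5) are used for all ratios across genes.

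Gzmc was carried by few cells at high levels. It was found in 6 control cells and 25 cells of the labelled knockout, with 176 and 1423 UMIs, and reached at least 10 UMIs in 3 and 19 cells. In the control, 72.7% of its UMIs lay in 1 cell, and in the labelled knockout the highest cell held 23.6% and the 5 highest held 70.8%. After thinning, 4.17% and 16.1% of cells kept a Gzmc UMI. Gzmd, Gzme, Gzmf and Gzmg were at 0 UMIs in the control, and their 215, 112, 43 and 38 UMIs in the labelled knockout came almost wholly from 1 cell, which held 98.6% to 100% of each. Gzmc to Gzmg are near-identical genes, so counts may be split wrongly among them.

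Patterns of granzyme use were counted in the cells. Cells with Gzma alone made up 55.0% (66 of 120) of the control and 32.8% (41 of 125) of the labelled knockout. Cells with Gzma and Gzmb and no Gzmc made up 40.0% (48) and 46.4% (58), and cells with any Gzmc 5.0% (6) and 20% (25). The cells with any Gzmc were deeper, at a median of 5421 and 6747 UMIs, than those with Gzma alone, at 2145 and 2498 UMIs. The granzymes Gzma, Gzmb and Gzmc made up 0.494% of the UMIs of the median control cell and 0.838% of the median cell of the labelled knockout, with highest values of 3.14% and 4.96%.

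**Figure D1:**
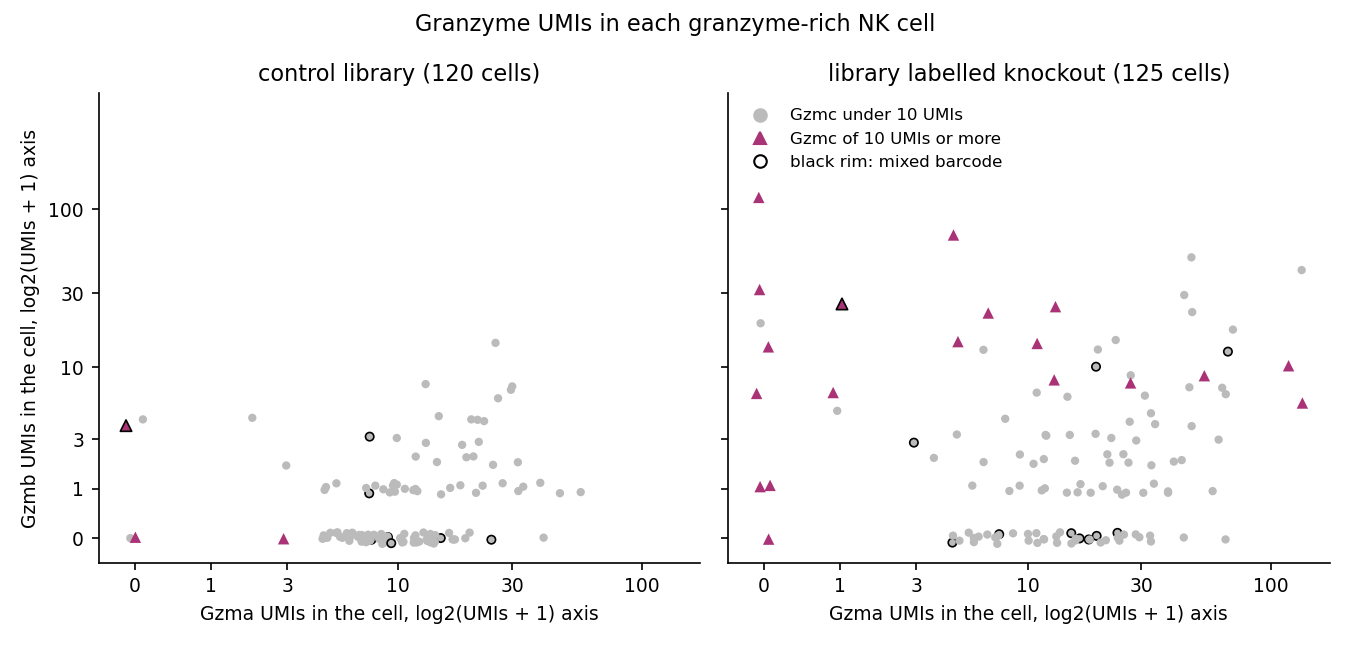
Each point is 1 granzyme-rich NK cell, with its Gzma UMIs on the x axis and its Gzmb UMIs on the y axis (both on log2(UMIs + 1) axes, with small random shifts), for the control (120 cells) and the library labelled knockout (125 cells). Triangles mark the 3 and 19 cells with at least 10 Gzmc UMIs and black rims mark mixed barcodes, and cells with more than 14 Gzmb UMIs are seen only in the library labelled knockout.

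The cells held unequal parts of the granule transcripts of the tumor leukocytes. Of all Gzma UMIs in kept cells, 62.3% in the control and 75.6% in the labelled knockout lay in granzyme-rich NK cells. For Gzmb these shares were 8.95% and 21.8%, for Gzmc 15.4% and 74.8%, and for Prf1 21.5% and 28.9%. Most Gzmb transcripts of both libraries were therefore in other leukocytes. The share of B cells with a UMI, given as a background, was 1.05% and 1.32% for Gzma, 0.958% and 1.06% for Gzmb and 0 and 0.528% for Gzmc. Their median depths were 1626 and 1912 UMIs. Of the 11 control B cells with Gzma, 5 held at least 10 of its UMIs, so this share is not a measure of free RNA alone. In cells that held CD3 and NK receptor transcripts (113 and 123 cells, median depth 2649 and 3677 UMIs), Gzma was found in 14.2% and 9.76%, Gzmb in 17.7% and 40.7%, and Gzmk, a granzyme of memory-like T cells, in 7.08% and 17.1%. Only 0.833% and 3.2% of granzyme-rich NK cells held a Gzmk UMI.

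Perforin and the proteins that load and guard the granules were measured next. Prf1 stood at 214 (165 to 274) CPM in the control and 310 (262 to 365) CPM in the labelled knockout. Serpinb9 and Serpinb6b, which protect the killer cell from its own granzymes, stood at 323 and 364 CPM in the control and at 441 and 500 CPM in the labelled knockout. Cst7, an inhibitor of the cathepsins that activate granzymes, was at 140 (100 to 189) and 268 (224 to 319) CPM. Nkg7, a granule membrane protein needed for degranulation, stood at 1893 and 1786 CPM, and Ctsw at 453 and 414 CPM. Of 16 granule genes outside the rule that passed the filter of 20 UMIs over both sums, 10 were above 0 and 0 reached 2-fold in either direction, with a median log2 ratio of 0.37. Over all 5349 genes past the filter the median was -0.12, and 3.61% were at least 2-fold higher and 5.57% at least 2-fold lower in the labelled knockout. Over all members, 2.3% of 6429 genes were at least 2-fold higher and 5.51% at least 2-fold lower. No direction is read for the granule list from these counts.

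**Figure D2:**
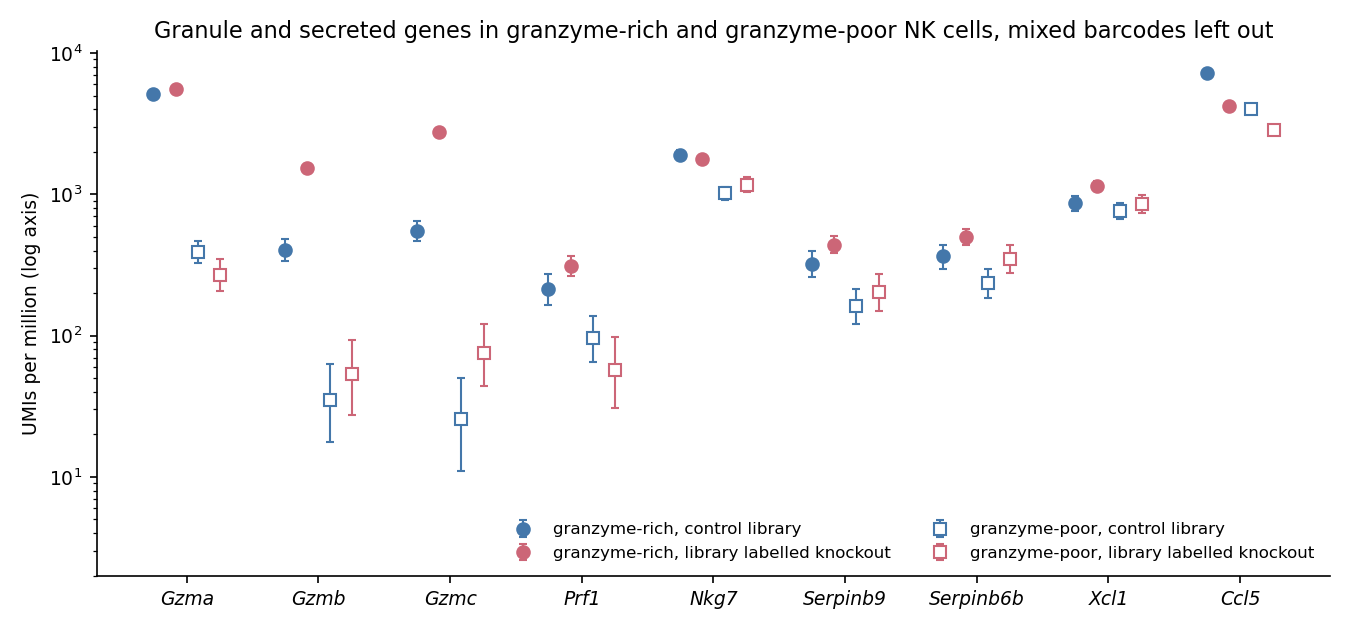
CPM (log axis) of 9 granule and secreted genes in granzyme-rich (filled circles) and granzyme-poor (open squares) NK cells of the control (blue) and the library labelled knockout (red), without mixed barcodes. Bars are exact 95% Poisson intervals of the counts, and Gzmb stands at 405 and 1535 CPM in granzyme-rich cells.

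Beside the granzymes, 85 to 128 granzyme-poor NK cells per library met the same receptor and CD3 limits with fewer than 5 granzyme UMIs, and they show what else goes with granzyme content. Depth was alike, with medians of 2326 and 2897 UMIs. The contrast was fixed by the rule and is described without a test. Il7r, the IL-7 receptor of early NK cells and other innate lymphoid cells, was lower in granzyme-rich cells, with 6.81 against 186 CPM in the control and 27.4 against 270 CPM in the labelled knockout. Kit, the receptor for stem cell factor on immature NK cells, stood at 40.9 against 166 CPM and 44.3 against 124 CPM. Ltb, which encodes lymphotoxin beta, stood at 296 against 681 CPM and 336 against 916 CPM. Cd7 was at 286 against 438 CPM and 175 against 500 CPM. The chemokine receptor genes Cxcr3 (54.5 against 115 CPM, and 38 against 115 CPM) and Cxcr6 (13.6 against 51.2 CPM, and 21.1 against 111 CPM) lay on the same side. Tcf7, a transcription factor of less mature NK cells, was at 238 against 400 CPM and 116 against 226 CPM.

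Some genes of mature NK cells lay on the other side, while the maturation list as a whole did not. Of its 14 genes that passed in both libraries, 1 was called higher and 2 lower, beside 0.368% and 0.391% of all genes. In both libraries 3 were above 0 and 6 below 0, and the median was 0. Zeb2, a transcription factor that drives late NK maturation, stood at 351 against 92.8 CPM in the control and 207 against 115 CPM in the labelled knockout. In the labelled knockout the log2 ratio of Zeb2 was 0.87 over all members, -0.06 with a limit of 10 granzyme UMIs and -3.00 among cells that held Y-linked UMIs but no Xist. Itgam, which encodes CD11b, was at 150 against 51.2 CPM and 92.9 against 31.0 CPM. Prf1 was at 214 against 96.0 CPM and 310 against 57.5 CPM. Klrg1 and S1pr5, a sphingosine phosphate receptor for exit from tissue, rested on few UMIs (14 and 24 for Klrg1, 21 and 10 for S1pr5 in granzyme-rich cells), against 3 and 1, and 5 and 0, in granzyme-poor cells. The chymase gene Cma1, also a mast cell gene, held 23 and 16 UMIs against 4 and 0, while the basophil and mast cell gene Mcpt8 was at 0 in all 4 sums. Irf8 stood at 701 against 470 CPM and 891 against 478 CPM.

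Of 4348 genes that passed the filter in both libraries, 16 (0.368%) were at least 2-fold higher and 17 (0.391%) at least 2-fold lower in granzyme-rich cells in both. Over all members the counts were 42 (0.787%) and 18 (0.337%) of 5335, and 6 and 10 of these genes were also called without mixed barcodes. Among the 11 tissue residency and innate lymphoid genes that passed, 0 were called higher and 4 lower, 8 were below 0 in both libraries, and the median was -0.84. Among 17 S phase and mitosis genes, 2 were called higher, 16 were above 0 in both libraries, and the median was 0.64. Mki67 was at 153 against 41.6 CPM in the control and 207 against 44.2 CPM in the labelled knockout, and Top2a at 163 against 60.8 CPM and 169 against 35.4 CPM. Over all members the control ratio of Mki67 turned to a log2 value of -1.19 with a limit of 10 granzyme UMIs and to -1.71 when granzymes were counted after thinning. Over all members after thinning, 20.8% and 16.9% of granzyme-rich and 15.4% and 12.2% of granzyme-poor cells held at least 3 UMIs of the S phase and mitosis list, and the intervals of these shares overlapped.

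**Figure D3:**
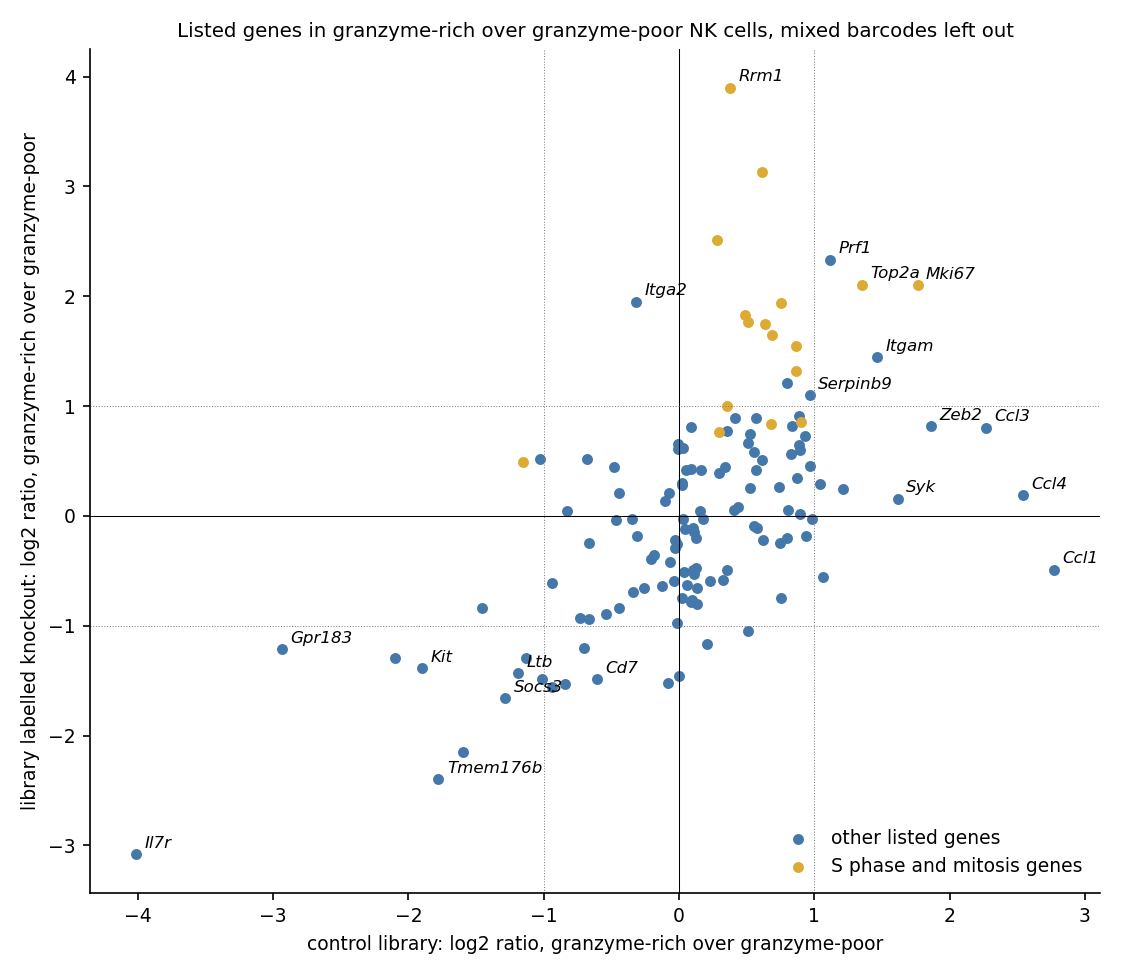
Log2 ratio of granzyme-rich over granzyme-poor NK cells in the control (x axis) and the library labelled knockout (y axis), without mixed barcodes. Points are genes of chosen lists with at least 20 UMIs in each library. S phase and mitosis genes are yellow, other listed genes blue, and some genes are named. Il7r lies at -4.01 and -3.08, Zeb2 at 1.86 and 0.82, and Prf1 at 1.12 and 2.33, and most genes lie near 0 on both axes.

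Between the libraries, few activating receptors of the granzyme-rich cells differed by 2-fold, and those that did were lower in the labelled knockout. Klrc2, the activating NKG2C receptor, was at 592 (508 to 687) CPM in the control and 236 (195 to 284) CPM in the labelled knockout, a log2 ratio of -1.31 (-0.93 over all members). Klra4, the activating receptor Ly49D, was at 967 and 462 CPM, Klrk1, which encodes NKG2D, at 1120 and 737 CPM, and its adaptor Hcst at 497 and 264 CPM. Syk, a kinase downstream of such receptors, was at 187 and 69.7 CPM. The adaptors Tyrobp (1841 and 1773 CPM) and Fcer1g (1644 and 1723 CPM) stood within 1.1-fold. Of 23 activating receptor and adaptor genes that passed, 0 were at least 2-fold higher and 3 at least 2-fold lower, 18 were below 0, and the median was -0.53. Over all members the median of 24 such genes was -0.08, with 1 called lower and 15 below 0. Of all genes, 58.6% were below 0 without mixed barcodes and 61.3% over all members. The shares called higher and lower were 3.61% and 5.57% without mixed barcodes, and 2.3% and 5.51% over all members. In granzyme-poor NK cells Klrc2 stood at 512 and 536 CPM and Klra4 at 502 and 527 CPM. The list of inhibitory receptors, which holds Ly49 and NKG2 genes and also Klrg1, had a median of -0.05 over 10 genes, with 0 called in either direction.

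Transcription factors had a median of -0.70 over 20 genes, the lowest of the lists without mixed barcodes. The median of all genes was -0.12, with 3.61% called higher and 5.57% lower. Of the transcription factors, 0 were called higher and 6 lower. Over all members their median was -0.28, with 0 and 1 called, and the migration receptors were lower at -0.30. Klf2, which keeps lymphocytes quiescent and able to leave tissue, was at 460 (385 to 544) CPM in the control and 156 (123 to 196) CPM in the labelled knockout. Eomes, a T-box factor that defines NK cells, was at 460 and 264 CPM. Tox, needed for NK development, was at 102 and 33.8 CPM. Foxo1, which restrains late NK maturation, was at 102 and 38 CPM. Irf8 was at 701 and 891 CPM. The maturation list had a median of -0.63 over 16 genes, with 1 called higher and 3 lower. Spn, which encodes CD43, was at 398 and 192 CPM. Ly6a, an interferon-inducible surface protein also known as Sca-1, held 2 UMIs in the control and 34 in the labelled knockout, and in granzyme-poor cells 9 and 18.

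Receptors for cytokines and for adhesion also lay on both sides. Of 16 cytokine receptor and signalling genes, 2 were at least 2-fold higher and 4 at least 2-fold lower, with a median of -0.19. The shares over all genes were 3.61% and 5.57%, with a median of -0.12. Il18rap and Il18r1, the subunits of the IL-18 receptor, were at 643 and 402 CPM in the control and 277 and 213 CPM in the labelled knockout. Il2rb, shared by the receptors for IL-2 and IL-15, was at 579 and 521 CPM with overlapping intervals. The integrins Itga4 and Itgal were at 654 and 711 CPM in the control and 367 and 399 CPM in the labelled knockout. Of 10 migration receptor genes, 0 were above 0 and 1 was at least 2-fold lower. Tnfrsf9, the costimulatory receptor 4-1BB, was on the other side, at 119 (83.0 to 166) and 319 (270 to 374) CPM. The other costimulation and activation genes were closer, and of 11 in the list 1 was called higher and 0 lower, with a median of 0.03.

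Secreted effectors lay on both sides. Of 9 such genes that passed, 1 was at least 2-fold higher and 2 at least 2-fold lower, with a median of -0.38. The shares over all genes were 3.61% and 5.57%, with a median of -0.12. Xcl1, a chemokine that attracts cross-presenting dendritic cells and a marker given for these cells outside the rule, was found in 37 of 120 control cells and 60 of 125 cells of the labelled knockout, with at most 68 and 103 UMIs in a cell. Its level was 861 (758 to 974) and 1146 (1052 to 1247) CPM. Over all members and without thinning, 50% and 61.2% of granzyme-poor NK cells held Xcl1, against 30.8% and 48% of granzyme-rich cells. Without mixed barcodes the levels in granzyme-poor cells were 768 and 854 CPM. The ratio of rich to poor was 1.12 (0.936 to 1.34) in the control, an interval that includes 1. It was 1.34 (1.14 to 1.59) in the labelled knockout, where the level thus went the other way from the share. Over all members the log2 ratio was -0.03 in the control and 1.06 in the labelled knockout. Of all Xcl1 UMIs in kept cells, 14.2% and 42.7% lay in granzyme-rich NK cells. Ccl5, the most abundant chemokine listed, was at 7179 (6876 to 7492) CPM in the control and 4216 (4033 to 4405) CPM in the labelled knockout. Ccl3 and Ccl4, chemokines of activated NK cells, were at 327 and 677 CPM in the control and 158 and 344 CPM in the labelled knockout, although over all members their log2 ratios were -0.16 and -0.07. Ifng was at 123 (85.8 to 170) and 129 (98.5 to 165) CPM, so no difference was detectable at this depth. Spp1, which encodes osteopontin, was at 34 and 298 CPM, and in granzyme-poor cells at 6.40 and 159 CPM.

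Interferon-stimulated genes depended on the mixed barcodes. Over all members, 14 of 40 such genes were at least 2-fold higher in the labelled knockout, 34 were above 0, and the median was 0.69. Without mixed barcodes 24 genes passed the filter, 1 was called higher and 2 lower, 6 were above 0, and the median was -0.22. The shares of all genes called higher and lower were 2.3% and 5.51% over all members, and 3.61% and 5.57% without mixed barcodes. Isg15, the ubiquitin-like product of this response, had a log2 ratio of 1.66 over all members and stood at 71.5 (44.3 to 109) CPM in the control and 44.3 (27.4 to 67.8) CPM in the labelled knockout without mixed barcodes. The mixed barcodes of the labelled knockout held up to 399 interferon-stimulated UMIs each. Usp18 held 6 and 12 UMIs without mixed barcodes. After thinning, 50.9% and 52.2% of cells held at least 3 UMIs of the list, and 51.7% and 55.7% over all members. Of all B cells, 78.6% and 82.9% did. Psmb8, an interferon-inducible subunit of the immunoproteasome that trims peptides for MHC class I, was at 364 (299 to 440) and 732 (658 to 814) CPM, and in granzyme-poor cells at 451 and 584 CPM. Bst2 was at 78.3 and 135 CPM. The MHC class I genes H2-K1 (2968 and 3044 CPM) and B2m (2485 and 2728 CPM) stood within 1.1-fold.

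Glycolysis genes and mitosis genes went the other way, with medians that turned from below to above 0 when the mixed barcodes were left out. The glycolysis and nutrient uptake list had a median of -0.13 over 23 genes in all members and 0.78 over 19 genes without mixed barcodes, of which 6 were called higher and 0 lower. Gapdh was at 555 (473 to 647) and 1402 (1297 to 1513) CPM, Pkm at 228 and 559 CPM, and Ldha at 293 and 614 CPM. In granzyme-poor cells Gapdh was at 489 and 549 CPM. The S phase and mitosis list had a median of -0.21 over 34 genes in all members and 0.76 over 31 genes without mixed barcodes, with 8 called higher and 0 lower. The shares of all genes called without mixed barcodes were 3.61% higher and 5.57% lower. Birc5, a mitotic regulator, was at 34 and 95 CPM and Rrm2, which makes deoxynucleotides, at 30.6 and 86.6 CPM, while Mki67 was at 153 and 207 CPM. In the labelled knockout these UMIs lay mostly in cells with high Gzmc. Its 90 cells without Gzmc held 1 Birc5, 2 Rrm2 and 6 Mki67 UMIs, or 3.81, 7.61 and 22.8 CPM. These lay below the levels of all control cells, and the 107 control cells without Gzmc held Mki67 at 97.5 CPM. The 18 cells with at least 10 Gzmc UMIs held 31, 28 and 61 UMIs, of which 1 cell held 41.9%, 42.9% and 39.3%. The share of thinned cells with at least 3 UMIs of this list was 21.4% (14.2 to 30.2) in the control and 15.9% (9.72 to 24.0) in the labelled knockout, so the higher level did not come with a larger share of such cells. Host sex moves with these ratios, and its part was not tested.

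**Figure D4:**
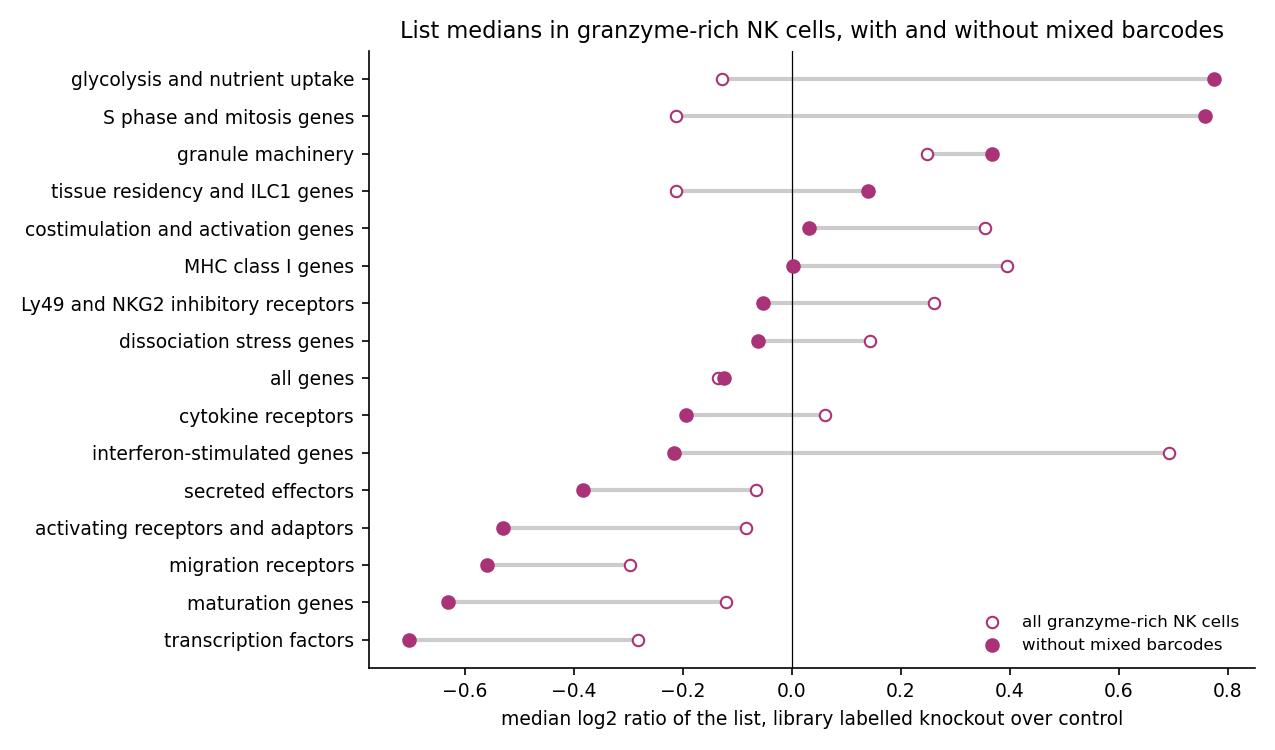
Median log2 ratio, library labelled knockout over control, of gene lists and of all genes in granzyme-rich NK cells, over all members (open circles) and without mixed barcodes (filled circles). The granule protease list and the cell type marker lists are not shown. The interferon-stimulated list moves from 0.69 to -0.22 and the glycolysis list from -0.13 to 0.78, and among the filled circles the transcription factor list lies lowest at -0.70.

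Genes were also ranked by their ratio over all members, among those that no single cell dominated. Plac8, a small cysteine-rich protein of leukocytes, had the largest ratio of the higher genes. It was at 129 (91.5 to 178) and 410 (354 to 471) CPM, and in granzyme-poor cells at 125 and 372 CPM. Bst2, Pdlim2, Bcl2a1d, Ifitm3, Cndp2, Cenpa, Psmb9, Ctla2b and Psmb8 followed, of which Bst2 and Ifitm3 are in the interferon-stimulated list, Psmb8 and Psmb9 in the MHC class I list and Cenpa in the mitosis list. On the lower side Arhgef3 was first, at 133 and 29.6 CPM, followed by Tspan32, Chd3, Tulp4, Zbtb20, 2310035C23Rik, Foxo1 of the transcription factor list, Srpk2, Zfp326 and Ptpn2. Ptpn2, a phosphatase that restrains JAK-STAT signalling, was at 112 and 42.2 CPM. Zbtb20 was at 514 and 211 CPM. Of all genes at least 2-fold higher, 68 of 148 were also called without mixed barcodes, and of those lower, 114 of 354. A single cell held over 20% of the UMIs of 72 of the higher and 242 of the lower genes.

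The cells with high Gzmc stood apart from the other granzyme-rich cells of the labelled knockout in more than this gene. The split, made after the values were seen and described without a test, set 18 cells with at least 10 Gzmc UMIs against 90 cells with 0, without mixed barcodes, and 6 cells with 1 to 9 UMIs were left out. The Gzmc-high cells held 12 to 336 Gzmc UMIs with a median of 27. They were deeper, with a median of 7233 UMIs against 2455, so shares of cells are given after thinning to 1000 UMIs (18 and 89 cells). Of the 18, 17 held Xist and no Y-linked UMI and 1 held Y-linked UMIs only. The control had 2 such cells, both with Y-linked UMIs only.

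The levels of Gzma and Gzmb in these groups were in part set by the rule, because a cell without Gzmc entered only with at least 5 UMIs of Gzma and Gzmb, while Gzmc alone sufficed for the others. No difference is read from them. Of the Gzmc-high cells 11 of 18 held Gzma, with a median of 5 UMIs, and 17 held Gzmb, with a median of 10. Of the cells without Gzmc 89 of 90 held Gzma, with a median of 17 UMIs, and 56 held Gzmb, with a median of 1. Among granule genes outside the rule, Prf1 was at 407 against 270 CPM, Nkg7 at 1023 against 2292 CPM and Cst7 at 413 against 175 CPM. Ccl5 was at 450 against 7176 CPM (33.3% against 93.3%), and Xcl1 at 1682 against 487 CPM (66.7% against 29.2%). Ccl5 and Nkg7 were thus lower, and Xcl1 higher, in Gzmc-high cells than in cells without Gzmc. Because these groups entered on different granzymes, the rule may also bear on genes that go with Gzma or Gzmb in a cell. Its part in these and the other differences of the split was not tested. Xcl1 did not rise steadily with Gzmc. It was at 2918 CPM in the 6 left-out cells with 1 to 9 Gzmc UMIs, and the cell with 336 Gzmc UMIs held 0.

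The receptor genes of the rule (Klrb1c, Ncr1 and Klre1) are not compared, since a fixed limit of UMIs requires a higher CPM of the shallower cells. The inhibitory receptor list holds Ly49 and NKG2 genes and also Klrg1, which belongs to neither family. Of its 9 genes that passed, 2 were at least 2-fold higher and 5 at least 2-fold lower, with a median of -1.37. The highest was Klrg1, at 98.6 against 30.5 CPM. Over all 3342 genes, 6.16% were at least 2-fold higher and 14.4% at least 2-fold lower, with a median of -0.11. Klra1, Klra3 and Klra9, which encode Ly49A, Ly49C and Ly49I, were at 0, 61.6 and 43.1 CPM against 141, 213 and 194 CPM. Klf2 was at 18.5 against 263 CPM, Zeb2 at 55.4 against 316 CPM, Eomes at 123 against 346 CPM, and Tbx21 at 61.6 against 103 CPM. Ly6a was at 179 against 19.0 CPM (27.8% against 0%), Thy1 at 413 against 194 CPM, and Tnfsf10, which encodes the death ligand TRAIL, at 142 against 15.2 CPM. Tnfrsf9 was at 567 against 148 CPM, with 54.4% of its UMIs in 1 cell.

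Cycle and metabolism genes were higher in the same cells. Of 21 S phase and mitosis genes that passed, 16 were at least 2-fold higher, 0 were lower and all 21 were above 0, with a median of 1.70. The shares over all genes were 6.16% higher and 14.4% lower. At least 3 UMIs of the list were found in 55.6% (30.8 to 78.5) of thinned Gzmc-high cells and in 8.99% (3.96 to 16.9) of the Gzmc-lacking cells. Mki67 was at 376 against 22.8 CPM (22.2% against 1.12% of thinned cells) and Top2a at 333 against 22.8 CPM (0% against 1.12%). In the Gzmc-high cells 1 cell held 39.3% of the Mki67 and 33.3% of the Top2a UMIs. The higher Top2a level was thus not seen as a larger share of thinned cells. Of 18 glycolysis and nutrient uptake genes, 12 were at least 2-fold higher and 0 lower, with a median of 1.51. The filter bears on this count too, as Tfrc passed with 18 against 3 UMIs. Gapdh was at 2390 against 723 CPM (77.8% against 36%), Odc1, the first enzyme of polyamine synthesis, at 370 against 83.8 CPM, and Tfrc, the transferrin receptor, at 111 against 11.4 CPM. Interferon-stimulated genes had a median of -0.82 over 16 genes, with 1 called higher and 7 lower.

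**Figure D5:**
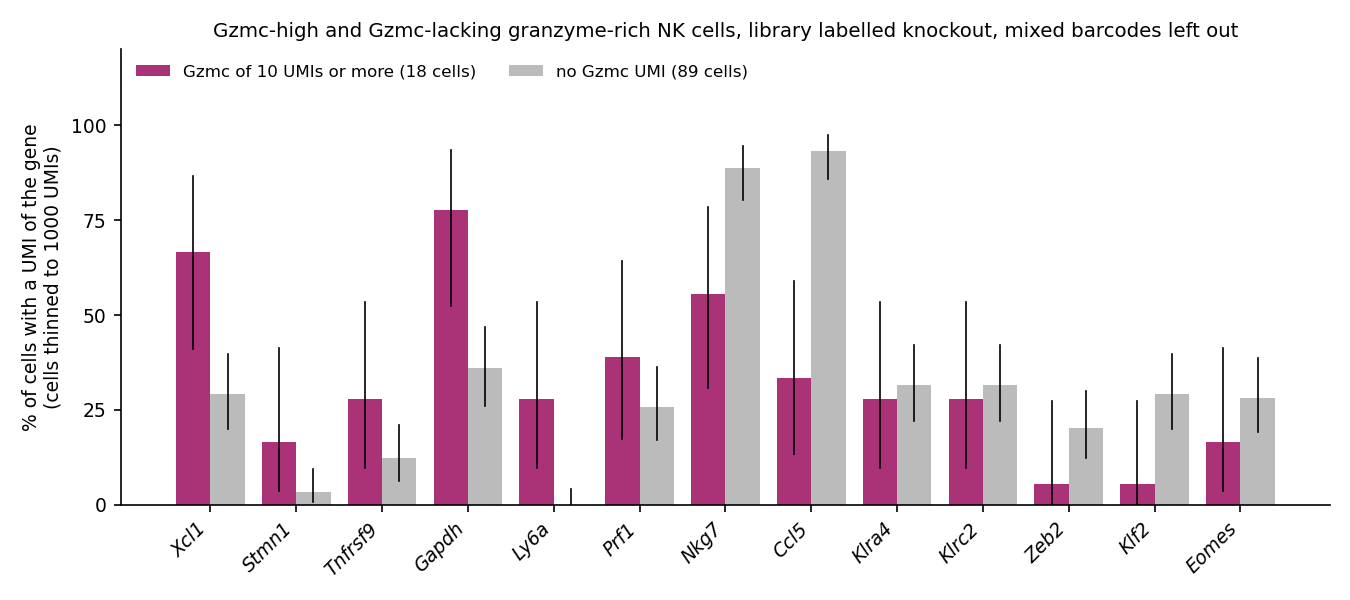
Share of cells with at least 1 UMI of each gene (y axis, %, each cell thinned to 1000 UMIs) among 18 Gzmc-high (purple) and 89 Gzmc-lacking (grey) granzyme-rich NK cells of the library labelled knockout, without mixed barcodes. Bars are shares and lines exact binomial 95% intervals, and Ccl5 stands at 33.3% and 93.3%, Nkg7 at 55.6% and 88.8%, and Xcl1 at 66.7% and 29.2%.

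Several library differences lay on the same side as the Gzmc split, for Xcl1, Gapdh, Ly6a, Ccl5, Klra4 and Klf2. The 18 Gzmc-high cells of the labelled knockout held 162345 UMIs, against 262679 in its 90 Gzmc-lacking cells. In the 90 Gzmc-lacking cells, Klf2 stood at 263 CPM and Gapdh at 723 CPM, between the values of the control and of all granzyme-rich cells of that library (460 and 156, and 555 and 1402 CPM). Xcl1 stood there at 487 CPM, below the 861 CPM of all control cells, and Ccl5 at 7176 CPM, against 7179 CPM. The like group of 107 control cells without Gzmc held Xcl1 at 421, Gapdh at 441, Ccl5 at 8189 and Klf2 at 527 CPM. Against that group Gapdh was higher, and Ccl5 and Klf2 lower, in the Gzmc-lacking cells of the labelled knockout. Xcl1 rested on 108 UMIs in the control group and 128 in the labelled knockout, and no direction is read for it.

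Within cells of 1 sex by their transcripts, some of the library differences stayed and others turned. In cells with Xist and no Y-linked UMI (26 and 90 cells), the ratio of the labelled knockout to the control was 2.24 (1.64 to 3.12) for Gzmb, 0.745 for Gzma, 0.353 for Ccl5, 0.251 for Klra4 and 3.30 for Gapdh. In cells with Y-linked UMIs and no Xist (45 and 6 cells) it was 6.74 (4.14 to 11.1) for Gzmb, 0.760 for Gzma, 0.763 for Ccl5, 1.46 for Klra4 and 5.19 for Gapdh. The last group rests on 6 cells of the labelled knockout, and 1 of them held 57.4% of their UMIs, 31 of their 42 Gzmb UMIs, all 336 Gzmc UMIs and 97 of 99 Gapdh UMIs. Without that cell the ratio was 4.15 (1.88 to 8.47) for Gzmb, 2.98 (1.86 to 4.62) for Klra4 and 0.246 (0.0294 to 0.913) for Gapdh. Gzmb, a gene of the rule and so only described, was above 1 in both kinds of cell. Klra4 lay on opposite sides, and Gapdh depended on 1 cell. Gzmc rested on 3 UMIs in the control cells with Xist, against 969 in the labelled knockout, a ratio of 50.5 (17.2 to 245).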

How the data were processed

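The deposited files hold UMI counts per gene and barcode, made by the authors with Cell Ranger 3.0.1 on mm10, per the submitters' processing notes. The deposited counts were used as they stand. Kept barcodes, members and comparison classes were found by the limits given in the report, and the counts of each class were summed per library and divided by the summed UMIs (CPM). Ratios are differences of log2(CPM + 5) over genes with at least 20 UMIs over both sums. A gene was called at a log2 ratio of 1 or more in size. With 1 library per genotype no test was run. Shares with a UMI were read after thinning each cell to 1000 UMIs. Gene lists may be named in full, and beyond them the 10 genes per direction with the largest ratio, at least 50 UMIs and at most 20% of UMIs in 1 cell. Mitochondrial, ribosomal protein, sex-linked and antigen receptor genes and those of the rule were left out of that ranking. Of the listed genes, 12 are not in the feature table and were not analysed. The members and lists were chosen with earlier results of these data known. Alternatives were other limits for members, filters, pseudocounts and scales. Barcodes were kept whether or not Scrublet marked them, and its removal was an alternative. Promoter windows came from RefSeq (GRCm38.p6) by gene symbol, and all 8 genes matched. Scripts used Python 3.11.15, numpy 2.4.6, scipy 1.17.1 and scanpy 1.11.5, and the ratios were tested on simulated data.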

Additional observations from a re-analysis of the deposited data

Results flagged for a closer look

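Xcl1 stood out because its library difference went in opposite directions in cells of the 2 sex-linked kinds. Among granzyme-rich NK cells with Xist and no Y-linked UMI, the level in the library labelled knockout was 3.22 (2.15 to 5.02) times that in the control, with 514 UMIs in 90 cells and 25 UMIs in 26 cells. Among cells with Y-linked UMIs and no Xist it was 0.0990 (0.0267 to 0.258) times, with 4 UMIs in 6 cells and 201 UMIs in 45 cells. Few cells carry the last ratio. Of the 201 control UMIs, 165 lay in 3 cells, and 1 of the 6 cells of the labelled knockout held 57.4% of their UMIs and 0 of Xcl1. Without that cell the ratio was 0.233 (0.0627 to 0.605). The difference between the kinds of cell was not tested, since each library is 1 pool of tumors.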

How the results depend on the processing

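The share of kept cells that were granzyme-rich (ratio of the labelled knockout to the control 1.29) was 0.935 with a mitochondrial limit of 5%, 1.77 with a limit of 10 granzyme UMIs and 0.717 among cells that held Y-linked UMIs but no Xist. The share of NK cells (1.23) was 1.69 with the limit of 10 and 0.902 in cells with Y-linked UMIs only. The cause of these shifts was not tested.

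Genes at least 2-fold higher in the labelled knockout numbered 148. They numbered 280 with the limit of 10, 239 with granzymes counted after thinning, 46 with at least 50 UMIs, 487 with at least 1 UMI, 253 by the mean over cells, 247 without the cell with most UMIs of each gene, 420 in cells with Xist only and 98 in cells with Y-linked UMIs only. Genes at least 2-fold lower numbered 354, and 107 with at least 50 UMIs, 1118 with at least 1 UMI and 120 without the top cell of each gene.

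Genes higher in granzyme-rich than in granzyme-poor cells in both libraries numbered 42. They numbered 11 with the limit of 10, 22 after thinning, 21 with no UMI of other types' genes, 10 with at least 50 UMIs, 144 with at least 1 UMI, 19 without the top cell, 6 in cells with Xist only, 2 in cells with Y-linked UMIs only, 16 without mixed barcodes and 25 without the deepest control barcode. Genes lower in both numbered 18, and 8 with a limit of 3 granzyme UMIs, 53 with the limit of 10, 66 after thinning, 10 with at least 50 UMIs, 84 with at least 1 UMI, 32 by the mean over cells, 4 in cells with Xist only and 0 in cells with Y-linked UMIs only.

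The median of the interferon-stimulated list (0.69) was 0.34 with the limit of 10, 0.37 after thinning, 0.048 with no UMI of other types' genes, 0.36 by the mean over cells, 0.12 in cells with Xist only, -1.48 in cells with Y-linked UMIs only and -0.22 without mixed barcodes.

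Gzmb kept its direction under 15 of 15 alternatives (log2 1.41 to 2.60) and Gzmc under 15 of 15 (1.78 to 5.86), while Gzma (-0.30 to 0.60) kept it under 12. These are genes of the rule, and some alternatives are other granzyme limits, so the ranges are a description only. Directions turned for Mki67 between granzyme-rich and granzyme-poor control cells (-1.19 with the limit of 10, -1.71 after thinning), for Isg15 without mixed barcodes (-0.63), for Ccl3 (0.09) and Ccl4 (0.14) with a limit of 3 granzyme UMIs and, in cells with Y-linked UMIs only, for Ly6a (-2.58), Bst2 (-1.86), Isg15 (-4.62), Usp18 (-0.18), Xcl1 (-0.92), Eomes (0.23) and Klra4 (0.72). In the same cells of the labelled knockout, Kit (0.61) and Zeb2 (-3.00) turned between granzyme-rich and granzyme-poor cells, and Zeb2 also with the limit of 10 (-0.06). Alternatives on mixed barcodes and on the deepest barcodes were chosen after seeing the data. No paired analysis was possible because each genotype is 1 library. Depth limits all statements on genes with few UMIs, and the limit of 5 granzyme UMIs admits deep cells more readily.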

Other observations

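Tissue residency and dissociation genes of granzyme-rich NK cells were compared between the libraries without mixed barcodes. Of 10 tissue residency and innate lymphoid genes that passed, 0 were at least 2-fold higher or lower in the labelled knockout, and the median log2 ratio was 0.14. Itga1, the CD49a integrin of tissue-resident innate lymphoid cells, held 3 and 4 UMIs, and Cxcr6 held 4 and 10, so neither difference was detectable at this depth. Of 14 genes induced by tissue dissociation, 0 were higher and 1 was lower, with a median of -0.06, and 83.0% and 83.2% of thinned cells held at least 3 UMIs of that list. Of 16 MHC class I genes, 0 were higher and 1 was lower, with a median of 0.00. The shares over all genes were 3.61% higher and 5.57% lower.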
